A study of Homo sapiens with 30 samples.

Results

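The chemokines of the airway epithelium followed here were CXCL1, CXCL2, CXCL3, CXCL5, CXCL6, CXCL8, CCL2, CCL5, CCL20 and CX3CL1, chosen by name from the gene names in the array files, with the older name IL8 counted as CXCL8. These 10 genes had 14 of the 58201 probes on the arrays and are 10 of 43966 gene names. Of these genes 7 were measured on all 3 arrays of several groups. In BEAS-2B cultures dosed with whole birch pollen, 7 of 7 had a higher mean than under air at 2h25 min and at 6h50 min. The share of all probes higher by value was 41.6% and 50.2%. The median differences of the 7 were 0.83 and 0.36 on the log2 scale. CXCL5 at 6h50 min was 0.04, or -0.01 with array weights. In the main model, which does not pair arrays, 0 passed the test across all probes at any time. With the replicate number as a block CCL2 was called at 2h25 min, but not with the slide as a block. With array weights CXCL2 was called at 55 min. CXCL6, the 8th of those tested, passed the filter on dim signal only through the 2h25 min pollen arrays, and at 6h50 min 0 of 3 air arrays measured it above background. Transcripts of CXCL1, CXCL8, CCL2 and CCL20 were lower at 24 h than at 2h25 min under both air and pollen. These falls passed the test, as did those of 14.9% of all probes under air and 11.8% under pollen. CXCL8 at 24 h was above background on 1 air and 0 pollen arrays. Under air not all of these calls held with quantile normalization, and slide and time were only partly separated.

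Chemokines are small secreted proteins that bind receptors on leukocytes and guide their migration. CXCL1, CXCL2, CXCL3, CXCL5, CXCL6 and CXCL8 carry the ELR motif and attract neutrophils through CXCR1 and CXCR2, CCL2 attracts monocytes through CCR2, CCL5 attracts T cells and eosinophils, CCL20 attracts CCR6-bearing dendritic cells and Th17 cells, and CX3CL1 is a membrane-bound chemokine that proteases can shed. In airway epithelial cells many of these genes are known as early targets of NF-kB and AP-1 signalling downstream of IL-1, TNF and pattern recognition receptors, and their messages carry AU-rich elements that make them short-lived.

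BEAS-2B, derived from human bronchial epithelium and immortalized, was grown here on Transwell inserts with the apical medium removed 24 h before exposure. Cultures labelled pollen received 10 mg of whole birch pollen that compressed air dispersed into a sedimentation chamber. Cultures labelled air were the controls, which the study's methods describe in one place as mock exposed without pollen and in another as kept from pollen by a mesh (the labels of both arms name the dose of 10 mg). RNA came from 5 times after dosing, namely 10 min, 55 min, then 2h25 min and 6h50 min, and last 24 h, with 3 arrays for each of the 10 groups. The study's methods give at least 3 independent repeats made on different days, while the labels do not tie the replicate numbers to those days, and p-values measure the spread between these samples only. Of the 6 columns for 24 h in the deposited table of normalized values, 6 matched another array of their own group best, so the replicate numbers at 24 h are uncertain. The model holds a single cell line with no other cell type added.

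Levels are log2 brightness of a probe minus the 75th percentile of its array, so that 0 is the brightness of that percentile, and levels of different probes cannot be ranked against each other. The keratins KRT8, KRT18, KRT19, KRT7, KRT5 and KRT17 and the junction genes EPCAM and CDH1 were well above background on all 30 arrays, as were 10 of 10 epithelial markers looked up. VIM, CDH2 and FN1, looked up as mesenchymal features of the line, were above background on 30 arrays as well. Of markers of other cells, 3 of 8 for leukocytes (PTPRC, CD14 and FCER1G), 1 of 4 for endothelium (CDH5) and 3 of 7 for fibroblasts (COL1A1, PDGFRB and DCN) were above background on 30 arrays, while MS4A1, HLA-DRA, PECAM1, COL3A1, PDGFRA and LUM were above it on 0. TYROBP, COL1A2, CD3D, CD3E, VWF and KDR were above it on 29, 27, 21, 17, 11 and 5. Between 44.7% and 59.3% of probes were well above background on the 29 arrays of one design. One array, that of pollen replicate 1 at 55 min, has another probe design and lies alone on its slide, and the 6h50 min arrays lie on a slide of their own. Arrays were also split into 180 areas of 20 rows and columns of spots. On the 6h50 min air arrays 7, 4 and 1 areas were dimmer than usual for their probes by more than 0.4, down to -1.19. On the 6h50 min pollen arrays 0 were. Whether any member probe lay in such an area was not looked up. Of the 10 genes, 8 had a probe that some group measured well above background in its 3 cultures, and these were tested among 32100 probes. CCL5 and CX3CL1 were not.

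To show what these genes share outside the arrays, the 150 bases before the annotated start site are printed for the 7 members whose promoters the RefSeq table of GRCh38.p14 held (CXCL1, CXCL2, CXCL3, CXCL5, CXCL6, CXCL8 and CCL20). Each is written 5′ to 3′ on the gene's strand, and capitals mark letters that match a searched motif on either strand:
CXCL1 promoter, chr4:73869243-73869392, plus strand: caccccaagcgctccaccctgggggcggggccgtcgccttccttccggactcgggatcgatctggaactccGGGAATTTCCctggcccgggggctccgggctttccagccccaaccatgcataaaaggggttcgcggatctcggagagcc
CXCL2 promoter, chr4:74099196-74099345, minus strand: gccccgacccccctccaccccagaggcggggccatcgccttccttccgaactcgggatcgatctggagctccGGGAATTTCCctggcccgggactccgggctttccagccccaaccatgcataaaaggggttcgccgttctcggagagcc
CXCL3 promoter, chr4:74038690-74038839, minus strand: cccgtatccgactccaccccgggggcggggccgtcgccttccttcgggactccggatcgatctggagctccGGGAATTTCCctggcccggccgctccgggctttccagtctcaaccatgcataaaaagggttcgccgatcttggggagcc
CXCL5 promoter, chr4:73998678-73998827, minus strand: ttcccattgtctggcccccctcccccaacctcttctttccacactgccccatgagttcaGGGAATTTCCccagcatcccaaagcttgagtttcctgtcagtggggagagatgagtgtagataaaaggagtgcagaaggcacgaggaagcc
CXCL6 promoter, chr4:73836528-73836677, plus strand: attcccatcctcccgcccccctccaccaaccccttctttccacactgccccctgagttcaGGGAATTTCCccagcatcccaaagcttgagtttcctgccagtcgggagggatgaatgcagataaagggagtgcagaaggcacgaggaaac
CXCL8 promoter, chr4:73740419-73740568, plus strand: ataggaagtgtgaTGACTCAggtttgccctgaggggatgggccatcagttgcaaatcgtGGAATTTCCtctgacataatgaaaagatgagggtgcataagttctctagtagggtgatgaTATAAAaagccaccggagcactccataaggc
CCL20 promoter, chr2:227813692-227813841, plus strand: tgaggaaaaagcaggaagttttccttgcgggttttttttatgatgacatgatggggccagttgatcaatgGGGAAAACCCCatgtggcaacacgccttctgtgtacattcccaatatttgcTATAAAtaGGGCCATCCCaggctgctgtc

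The motifs searched on both strands were GGANTTTCC and 2 overlapping variants of 10 letters for NF-kB, TGANTCA for AP-1 and TATAAA for the TATA box. At least 1 NF-kB motif lay in the 250 bases before the start site of 7 of 7 members, against 9.05% of 35116 promoters of the same length. In CXCL1, CXCL2 and CXCL3 the match GGGAATTTCC began 79, 78 and 79 bases before the start site, and in CXCL5 and CXCL6 the same letters began 91 and 90 bases before it. CXCL8 held GGAATTTCC at 91 bases. In CCL20 the 10-letter matches GGGAAAACCC and, on the plus strand as printed, GGAAAACCCC overlapped from 80 to 70 bases before the start site, and a further match, GGGCCATCCC, began at 21 bases.

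The AP-1 motif was found in CXCL8 alone of the 7, against 6.57% of all promoters, and TATAAA in CXCL8 and CCL20, against 10.7%. Several of these promoters are copies of each other: without gaps CXCL5 and CXCL6 had equal letters at 135 of 149 bases and CXCL1 and CXCL3 at 129 of 150, so the 7 matches are not 7 independent ones. The 6 CXC members all lie on chromosome 4. A match of letters is a description of the sequence and does not show that a factor binds there.

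**Figure D1:**
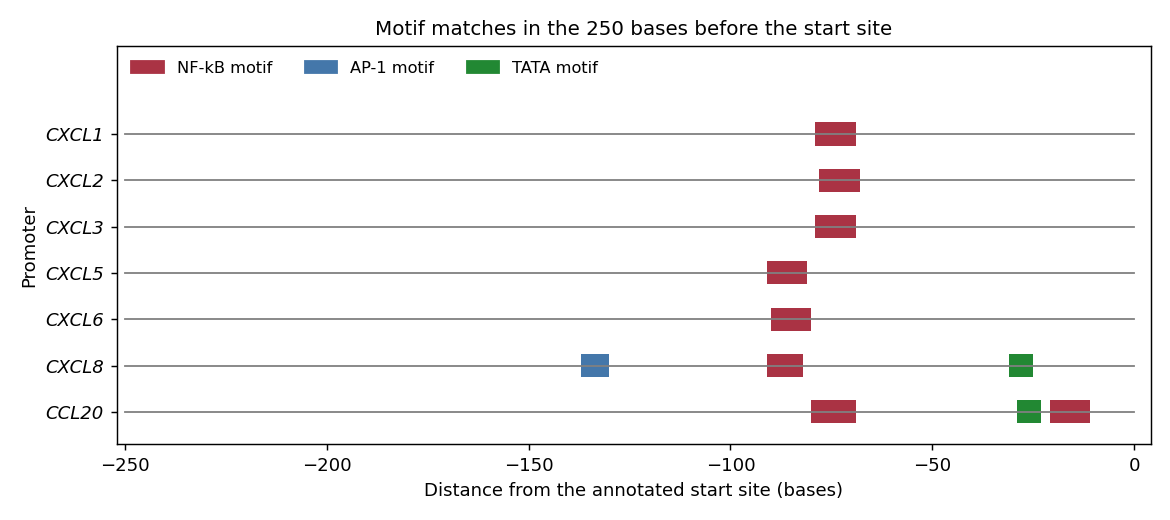
Motif matches in the 250 bases before the annotated start site of 7 chemokine promoters, with distance from the start site in bases on the x axis and 1 line per promoter. Red, blue and green boxes mark NF-kB, AP-1 and TATA motifs on either strand, and in every promoter a red box lies between 69 and 91 bases before the start site.

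The first question was whether pollen changed these transcripts relative to the air pulse. With calls set at a fold of 1.1 or more and an adjusted p below 0.05, limma called 0 of 8 members higher in pollen at 55 min, at 2h25 min and at 6h50 min, where 0.00312%, 0.0343% and 0.0374% of all tested probes were called higher. At 10 min and 24 h 0 of 8 were called as well, against 0% and 0.00312% of all probes. In bulk samples fewer cells with a transcript and less RNA per cell cannot be told apart.

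At an unadjusted p under 0.05 the counts of members higher in pollen were 0 at 10 min, 3 at 55 min, 4 at 2h25 min, 1 at 6h50 min and 0 at 24 h, against 1.42%, 1.52%, 1.51%, 5.04% and 2.56% of all probes. By value alone 2, 7, 8, 8 and 7 of 8 members were higher in pollen at the successive times, against 51.9%, 48.5%, 41.6%, 50.2% and 49.1% of all probes. The median difference of the 8 members was -0.05 at 10 min, 0.73 at 55 min, 0.83 at 2h25 min, 0.52 at 6h50 min and 0.33 at 24 h, beside medians of all probes between -0.03 and 0.01. Without CXCL6 the median was 0.93 at 55 min and 0.36 at 6h50 min, and the count at an unadjusted p under 0.05 was 0 at 6h50 min. Averaged over the 5 times all 8 members lay above 0, from 0.01 for CXCL5 to 0.84 for CCL20, and 7 had an unadjusted p under 0.05, where 47.8% and 2.17% of all probes were higher by value and at that p. Without CXCL6, 6 of 7 had such a p, and the mean of CXCL8 includes 24 h values near background. The mean of CXCL5 turned below 0 with each of 3 other scalings, to -0.16 at the lowest. The adjusted p was 1 for each member, with 0 called, against 0.00935% of probes. An F test over the 5 times called 0 members, against 0.0156% of probes. With the replicate number as a block, limma called CXCL3 and CCL2 for the mean over the times, with adjusted p = 0.0318 for each. It also called both by the F test, with adjusted p = 0.0409 and 0.0355. With normexp and quantile normalization beside the block it called 0 by either. The block takes arrays as paired at all 5 times. At 55 min and 6h50 min, however, not every same-numbered pair varied together across probes, and the numbers at 24 h are uncertain.

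**Figure D2:**
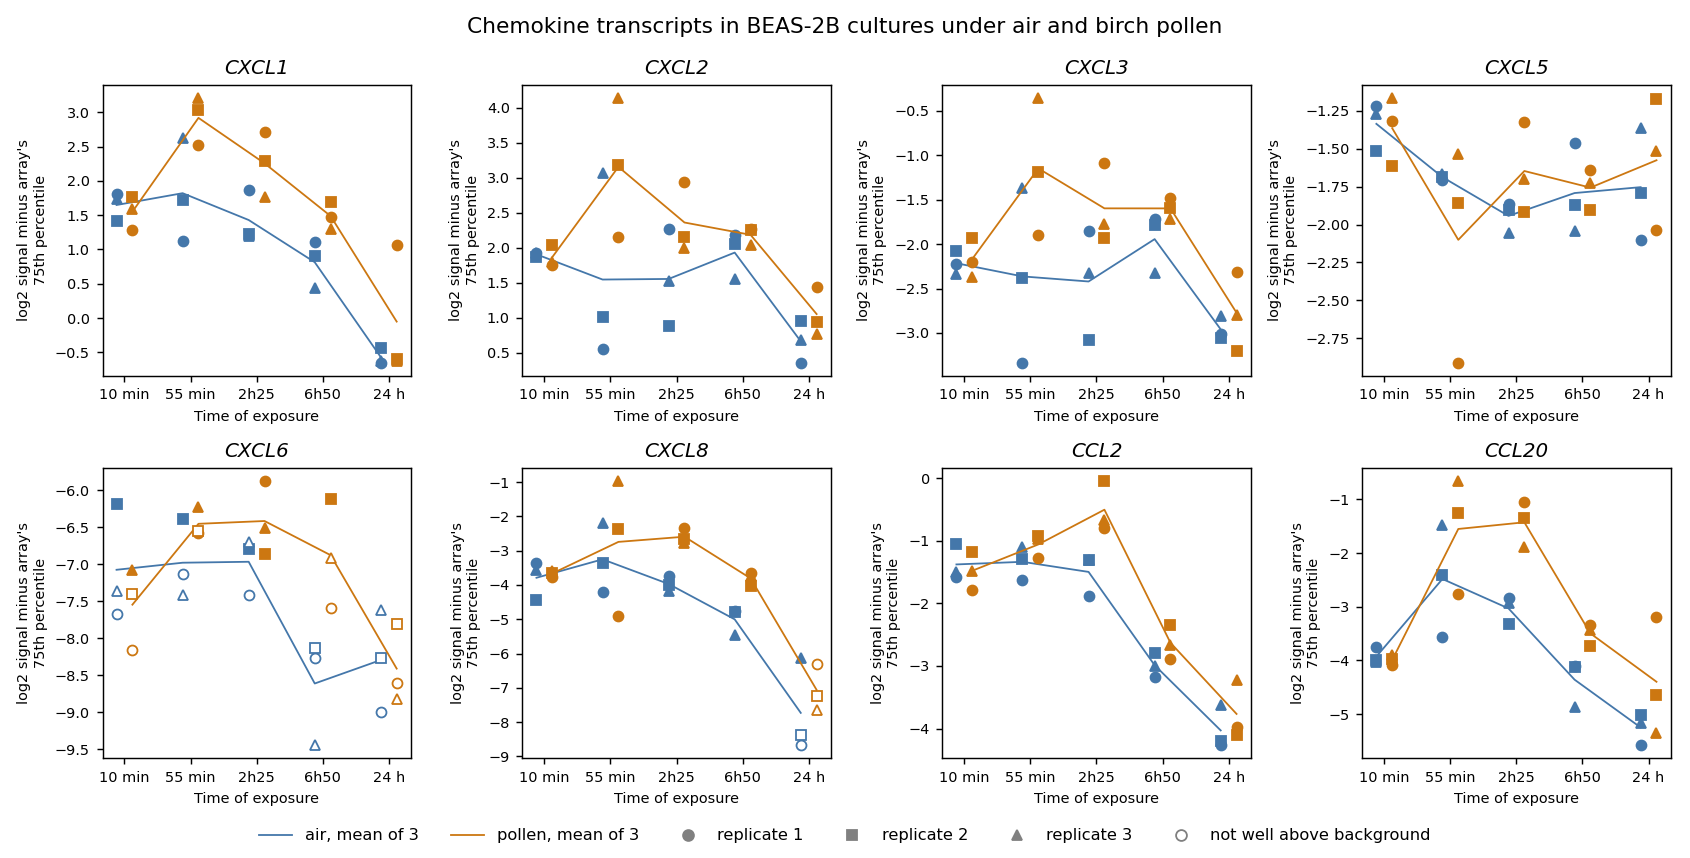
Level of 8 chemokine transcripts in each culture by time of exposure, as log2 brightness minus the 75th percentile of the array. Blue and orange points are air and pollen cultures with the replicate number as shape, open points are not well above background, and lines join the means of 3. Pollen means lie above air at 2h25 min and 6h50 min in all 8 panels, and most panels are lowest at 24 h.

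CXCL1, CXCL2 and CXCL3 are close relatives that act on CXCR2. The CXCL1 probe (chromosome 4, 74736850 to 74736909 on hg19, plus strand) read 1.12, 1.72 and 2.63 in the air cultures at 55 min and 2.52, 3.03 and 3.21 in the pollen cultures. Only the highest air culture reached into the pollen range, and in each pair of the same number pollen was higher. At 55 min and 6h50 min not every same-numbered pair of arrays varied together across probes. Differences by number at those times are therefore descriptions only. The CXCL1 difference was 1.099 ± 0.37 (SE), or 2.14-fold with a 95% interval of 1.25 to 3.66, and limma gave an adjusted p = 0.92.

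At 2h25 min CXCL1 read 1.86, 1.23 and 1.20 under air and 2.71, 2.30 and 1.76 under pollen. The groups overlapped by 1 air culture, with a difference of 0.83 ± 0.37. At 6h50 min it read 1.11, 0.90 and 0.44 under air and 1.47, 1.70 and 1.30 under pollen, so that the groups did not overlap, as was the case with pollen higher for 4 of 8 members and 6.51% of all probes at this time. Without CXCL6, above background there on 0 air arrays and 1 pollen array, it was 3 of 7 members. The CXCL1 difference was 0.67 ± 0.37, with adjusted p = 0.769. Of the 24 h pollen cultures, replicate 1 read 1.06 while the others read -0.59 and -0.63, near the air cultures at -0.65, -0.44 and -0.63.

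The second CXCL1 probe (74735646 to 74735705) differed by 0.78 ± 0.38, 0.72 ± 0.38 and 0.75 ± 0.38 at 55 min, 2h25 min and 6h50 min. Both probes thus had the same direction at those times. The 14 member probes were compared with each other without gaps, and the pair of different genes with the most equal letters had 25 of 40. Whether a probe also binds the transcript of a relative was not tested.

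CXCL2 showed the largest difference of any member at 55 min. Its probe (chromosome 4, 74962985 to 74963044, minus strand) read 0.55, 1.01 and 3.07 under air and 2.15, 3.18 and 4.14 under pollen. Each pollen culture exceeded the air culture of its number, by 1.60, 2.17 and 1.07, yet the highest air culture lay within the pollen range. The difference of 1.61 ± 0.49 corresponds to 3.06-fold with a 95% interval of 1.52 to 6.14 and an adjusted p = 0.92. Leaving out 1 array at a time gave 1.12 to 2.38, and without 55 min air replicate 3, the highest air culture, it was called with an adjusted p of 0.027.

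The weight given to each array changed the call. With limma's array weights, which let noisier arrays count less, the CXCL2 difference at 55 min was 2.21 with an adjusted p of 0.0369. Within the slide that held 2 arrays of each exposure it was 1.62, and without the array of the other design it was 2.11. At 2h25 min CXCL2 read 2.27, 0.87 and 1.52 under air and 2.94, 2.15 and 1.99 under pollen, a difference of 0.81 ± 0.49. At 6h50 min the difference was 0.25 ± 0.49. The second CXCL2 probe (74964342 to 74964401) differed by 1.24, 0.75 and 0.30 at these 3 times.

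CXCL3 followed the same order. Its probe (chromosome 4, 74902702 to 74902761, minus strand) read -3.33, -2.39 and -1.37 under air at 55 min and -1.90, -1.19 and -0.36 under pollen. All pairs were higher in pollen, by 1.44, 1.20 and 1.01, a narrower range than the cultures of either exposure covered. Across all probes, however, not every same-numbered pair varied together at 55 min (r from -0.07 to 0.40). The CXCL3 difference was 1.22 ± 0.39, or 2.32-fold, with adjusted p = 0.92. At 2h25 min it was 0.82 ± 0.39 and at 6h50 min 0.35 ± 0.39.

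The 55 min values moved with the scaling. With quantile normalization the median of all probes at 55 min shifted to -0.53, and the differences became 0.39 for CXCL3, 0.11 for CCL20 and -0.55 for CCL2, so that for CCL2 the direction turned, as it did for CXCL8 at -0.12. With the percentile over each array's own probes the median shifted to -0.37 and CCL2 stood at -0.14. Leaving out 1 array at a time gave 0.73 to 1.71 for CXCL3 and 0.39 to 1.53 for CCL20. The differences of other genes at 55 min given further on are subject to the same shift.

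CXCL8, the classical neutrophil attractant, varied most between cultures. At 55 min its probe (chromosome 4, 74609265 to 74609324, plus strand) read -4.19, -3.36 and -2.20 under air and -4.91, -2.36 and -0.96 under pollen. The lowest pollen value came from the array of the other design and the highest was 15.5-fold above it. The difference of 0.51 ± 0.69 became 1.12 within the slide that held both exposures, and 1.59 without the 3 arrays that stood apart, the one of the other design and replicate 1 of both exposures at 24 h. Leaving out 1 array at a time gave -0.38 to 1.59, and the direction turned without 55 min pollen replicate 3.

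At 2h25 min the CXCL8 cultures of each exposure lay close together. They read -3.74, -4.01 and -4.17 under air and -2.34, -2.66 and -2.78 under pollen, without overlap, as did 3 of 8 members with pollen higher and 2.85% of all probes. The differences by replicate number were 1.40, 1.35 and 1.39. The limma estimate was 1.38 ± 0.69, or 2.60-fold with a 95% interval of 0.96 to 7.05, whose error pools the spread over all 10 groups, with adjusted p = 1.

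At 6h50 min CXCL8 again did not overlap between exposures, at -4.75, -4.79 and -5.47 under air and -3.64, -4.04 and -3.73 under pollen, a difference of 1.20 ± 0.69. At 24 h it was well above background on 1 air and 0 pollen arrays, so no fold is given. A further CXCL8 probe (74607982 to 74608041) was above background on 4 arrays of 30 and was not tested.

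CXCL5 and CXCL6, whose proteins attract neutrophils as well, were not compared with each other by a test. CXCL5 was well above background on 30 arrays and CXCL6 on 10. The CXCL5 probe (chromosome 4, 74861898 to 74861957, minus strand) read -1.86, -1.91 and -2.06 under air at 2h25 min and -1.32, -1.92 and -1.70 under pollen. Its differences ranged from -0.41 ± 0.26 at 55 min to 0.30 ± 0.26 at 2h25 min, and at 6h50 min it was 0.04 with a 95% interval of -0.51 to 0.58, and -0.01 with array weights. At 55 min the array of the other design read -2.91 against -1.86 and -1.53 in the other pollen cultures, and within the slide that held both exposures the difference was -0.02.

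CXCL6 was near background throughout. Its probe (chromosome 4, 74703368 to 74703427, plus strand) was well above background on 10 of 30 arrays, 3 of them the 2h25 min pollen arrays at -5.87, -6.86 and -6.51. At 6h50 min it read -8.27, -8.13 and -9.44 under air, all not well above background, and -7.59, -6.12 and -6.92 under pollen, where 1 of 3 was above it. The groups did not overlap and limma gave an adjusted p of 0.16, but no fold is given, as the air values are bounds. In the deposited table of normalized values limma called it at 6h50 min with an adjusted p of 0.0388, on the same arrays near background. The second CXCL6 probe (74714496 to 74714555) was above background on 0 arrays.

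CCL2, the monocyte attractant, had the smallest spread of the members and the lowest p at 2h25 min. Its probe (chromosome 17, 32584050 to 32584109, plus strand) read -1.88, -1.31 and -1.31 under air and -0.80, -0.04 and -0.67 under pollen. Every pollen culture exceeded every air culture. The difference of 0.99 ± 0.25 is 1.99-fold with a 95% interval of 1.39 to 2.86, and limma gave an adjusted p = 0.465.

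At 2h25 min air and pollen arrays with the same replicate number varied together across probes, and with the replicate number as a block the CCL2 difference had an adjusted p of 0.00611. The pairs differed by 1.08, 1.26 and 0.64. Replicates 1 and 2 of both exposures lay on 1 slide and replicate 3 on another, and with the slide as a block the adjusted p was 0.404. At 55 min CCL2 differed by 0.28 ± 0.25, at 6h50 min by 0.36 ± 0.25 and at 24 h by 0.26 ± 0.25, with all 3 pairs higher in pollen at each of these times. Not every same-numbered pair varied together at 55 min and 6h50 min, and the numbers at 24 h are uncertain.

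CCL20, the ligand of CCR6, had the largest difference at 2h25 min. Its probe (chromosome 2, 228681100 to 228681836, plus strand, across a splice junction) read -2.84, -3.32 and -2.93 under air and -1.05, -1.35 and -1.89 under pollen. The exposures did not overlap, and the pairs differed by 1.79, 1.98 and 1.04. The difference of 1.60 ± 0.50 is 3.04-fold with a 95% interval of 1.49 to 6.20, and its adjusted p was 1.

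At 55 min CCL20 read -3.57, -2.41 and -1.47 under air and -2.75, -1.25 and -0.65 under pollen, a difference of 0.93 ± 0.50 in which the exposures overlapped and all pairs were higher in pollen. At 6h50 min the cultures read -4.10, -4.11 and -4.86 under air and -3.33, -3.73 and -3.43 under pollen without overlap, a difference of 0.86 ± 0.50. At 24 h the difference was 0.85 ± 0.50, but pollen replicate 1 at -3.19 stood apart from -4.64 and -5.36, and without the arrays that stood apart it was 0.08. CXCL1 changed likewise at 24 h, from 0.52 to -0.08.

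**Figure D3:**
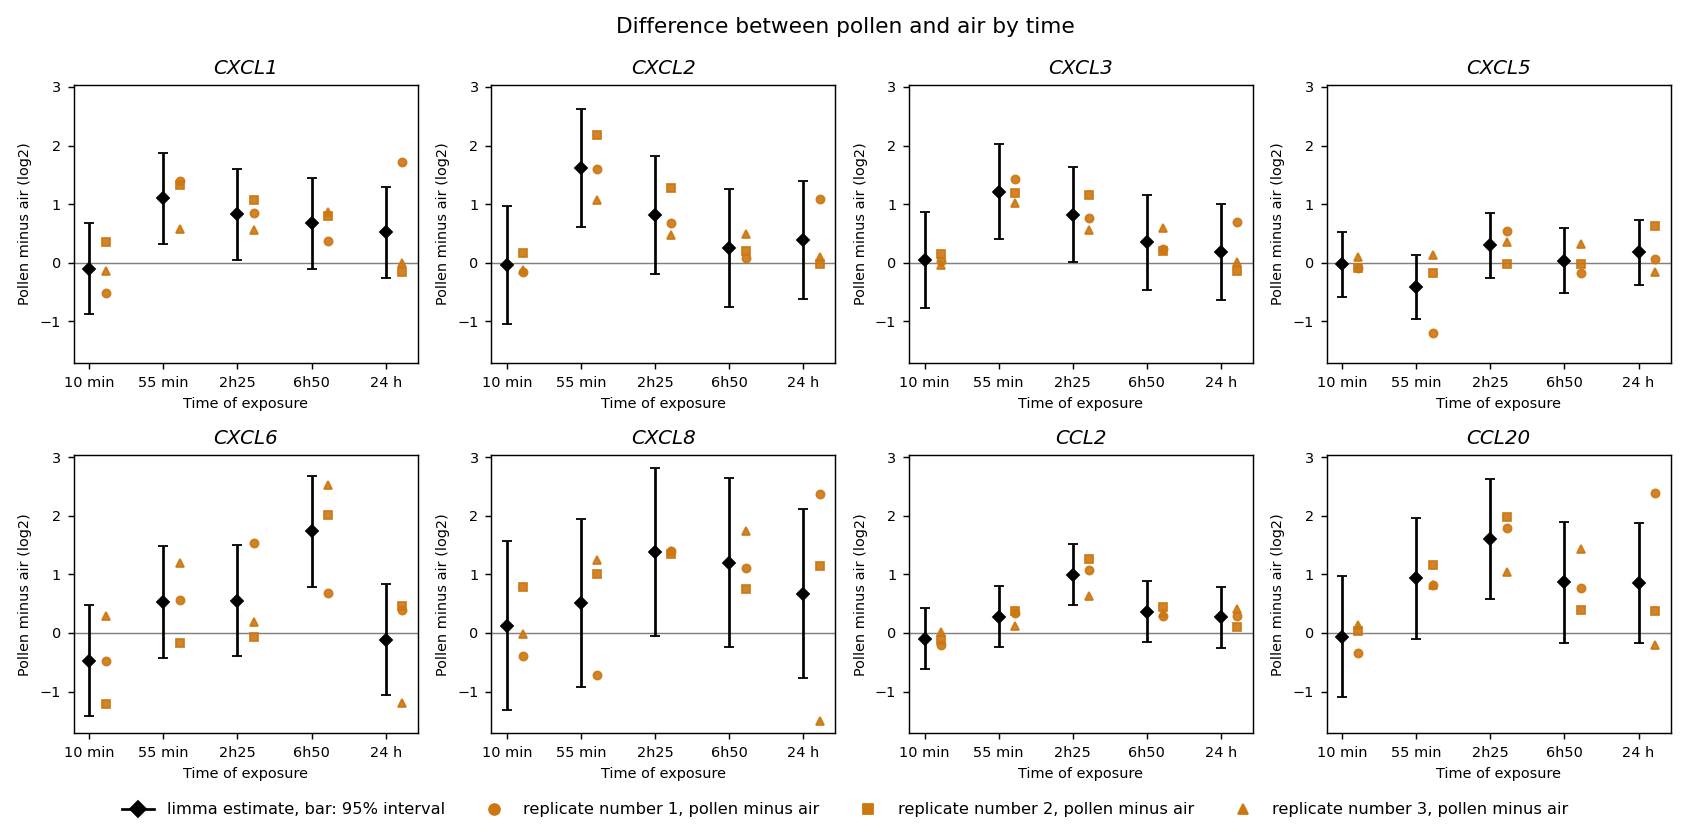
Difference between pollen and air (log2, y axis) for 8 chemokines at each time, with the limma estimate as a diamond, its 95% interval as a bar and the differences of same-numbered cultures as orange points. Estimates at 10 min lie near 0 for most members, and at 2h25 min the orange points of CXCL1, CXCL2, CXCL3, CXCL8, CCL2 and CCL20 are all above 0.

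The difference between pollen and air was itself compared between neighbouring times. At 55 min it was larger than at 10 min by value for 7 of 8 members, with a median of 1.00, against 46.7% of all probes. For this step limma called 0 members higher, as it called 0% of all probes. At an unadjusted p under 0.05, 3 members were higher, against 1.02% of probes. From 55 min to 2h25 min and from there to 6h50 min 0 members were called, as were 0% and 0% of probes higher, and 0 had an unadjusted p under 0.05. At 6h50 min the difference was smaller than at 2h25 min by value for 7 of 8 members, all but CXCL6, against 43.7% of probes. Of all probes 0.00312% were called lower. From 6h50 min to 24 h 6 of 8 were lower by value, against 50.6% of probes, and 0 were called, against 0%. At an unadjusted p under 0.05 CXCL6 alone was lower, near background, against 2.93% of probes. Without CXCL6 the counts by value above, in order, were 6, 7 and 5 of 7. A difference between times in the effect of pollen was thus not detectable for any member with 3 arrays per group.

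CCL5 and CX3CL1 were at background. The CCL5 probe (chromosome 17, 34199332 to 34199391, minus strand) was well above background on 1 of 30 arrays, a 2h25 min air array. The CX3CL1 probe (chromosome 16, 57418025 to 57418084, plus strand) was above it on 3 arrays, 1 air array each at 10 min, 55 min and 2h25 min, and on 0 of the 15 pollen arrays. No fold is given for either. ADAM10 and ADAM17, proteases that shed CX3CL1, were well above background on 30 arrays, and their differences at 55 min, 2h25 min and 6h50 min lay between -0.16 and 0.16.

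The spread between cultures of a group was wide for most of these genes. The pooled SD over the 10 groups was 0.90 for CXCL8, larger than that of 99.4% of tested probes, 0.64 for CCL20 and 0.62 for CXCL2. It was 0.59 for CXCL6, 0.50 for CXCL3, 0.48 for CXCL1, 0.34 for CXCL5 and 0.32 for CCL2, beside a median of 0.23 over all tested probes. All 8 lay above that median, though CXCL5 and CCL2 exceeded only 67.8% and 65.3% of tested probes. Within single groups the SD of CXCL8 was 2.00 at 55 min under pollen and 1.38 at 24 h under air. At 2h25 min it was 0.22 under air and 0.23 under pollen. The 55 min group holds the array of the other design, and the 24 h values lie near background, as do most of CXCL6.

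**Figure D4:**
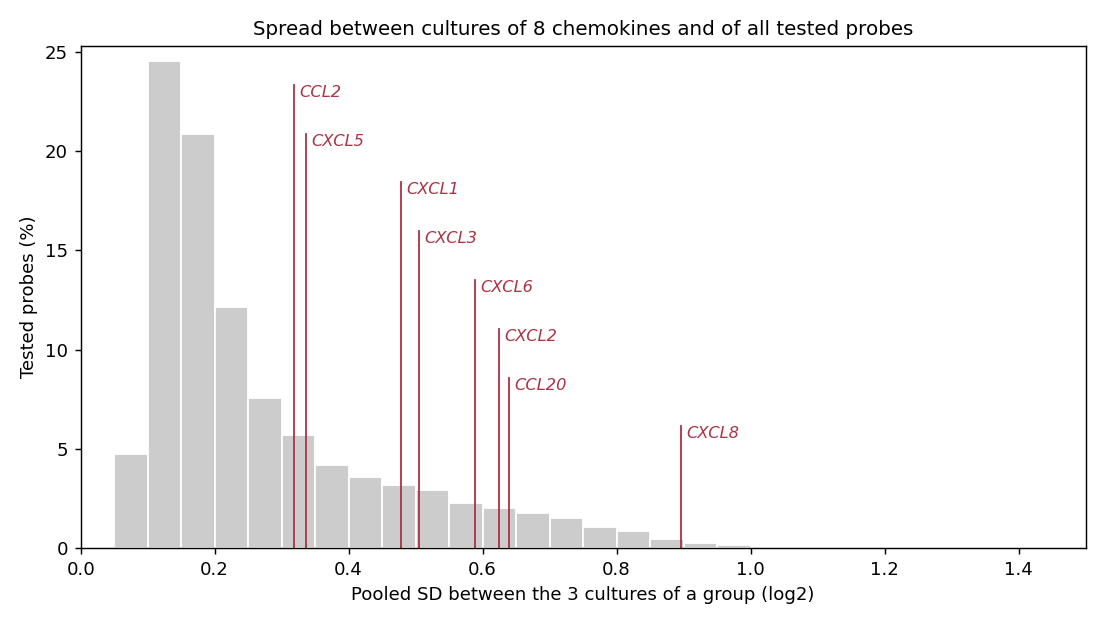
Pooled SD between the 3 cultures of a group on the log2 scale (x axis) for tested probes measured on all 30 arrays (grey bars, percent of probes on the y axis) and for 8 chemokines (red lines). The members lie from 0.32 for CCL2 to 0.90 for CXCL8, to the right of the main peak of the bars.

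At 55 min, 2h25 min and 6h50 min the same replicate number was highest for most members under both exposures. At 55 min replicate 3 was highest for 7 of 8 members under air and for 7 of 8 under pollen. At 2h25 min replicate 1 was highest for 6 under air and for 7 under pollen. At 6h50 min replicate 1 was highest for 6 under air and for 5 under pollen. At 24 h replicate 3 was highest for 5 under air and replicate 1 for 5 under pollen. At 10 min no replicate was highest for more than 4. CXCL2 in the air cultures of 55 min covered 5.73-fold from lowest to highest and CCL20 4.27-fold, more than the 3.06-fold and 1.91-fold differences between the exposures at that time. By the correlation of all probes, same-numbered arrays varied together at 10 min, 2h25 min and 24 h, while at 55 min and 6h50 min not every pair did (-0.07 to 0.40 and -0.03 to 0.23). Whether the shared order comes from the day of exposure, the chamber run or the array was not tested.

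**Figure D5:**
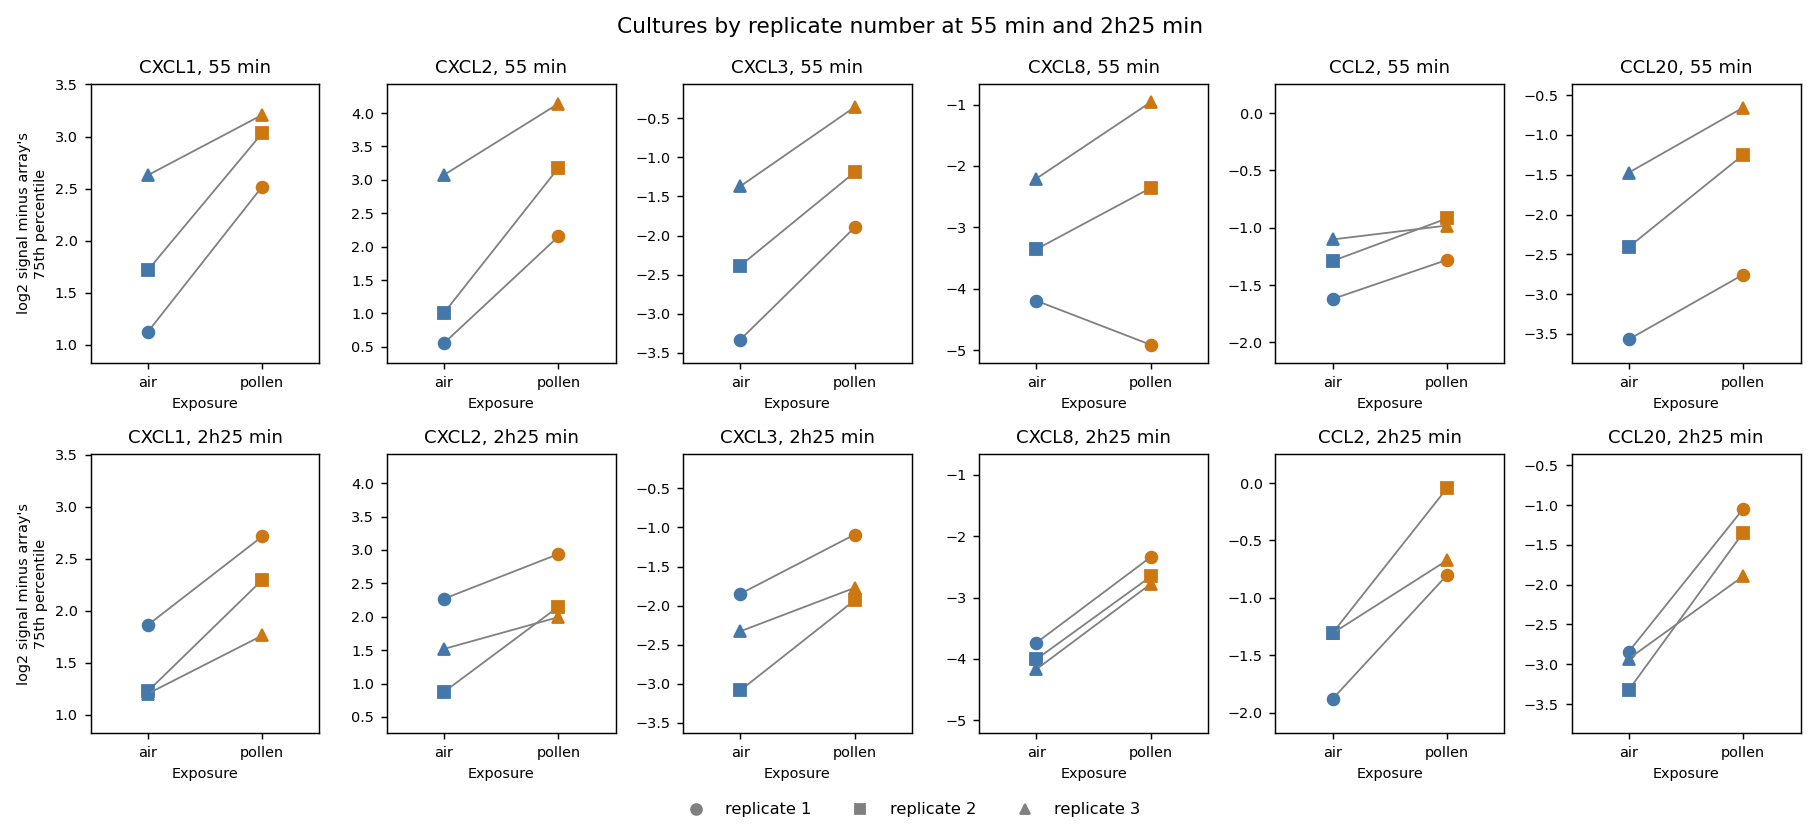
Level of 6 chemokines (log2 brightness minus the array's 75th percentile, y axis) in air and pollen cultures, with lines joining cultures of the same replicate number, at 55 min (top) and 2h25 min (bottom). At 55 min replicate 3 is highest in every panel except CCL2 under pollen, and lines rise from air to pollen in all panels but for 1 CXCL8 pair. Across all probes not every same-numbered pair of arrays varied together at 55 min.

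The second question was how the transcripts moved with time under each exposure. From 10 min to 55 min limma called CCL20 higher under pollen, by 2.44 ± 0.50 with adjusted p = 0.0194, which was 1 of 8 members against 0.421% of probes. Under air it was higher by 1.44 ± 0.50 with adjusted p = 0.283, and 0 members were called, against 0.115% of probes. The call under pollen was lost with the slide as a block, at 1.41 with adjusted p = 1. Of the 55 min arrays 1, air replicate 1, shares a slide with the 10 min arrays. It was also lost, with 0 members called, without any of the 3 pollen cultures of 10 min or without 55 min pollen replicate 2. Without 55 min pollen replicate 3 there were 2 calls, with CXCL5 lower.

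The highest mean under pollen came at 55 min for CXCL1, CXCL2 and CXCL3 and at 2h25 min for CXCL6, CXCL8, CCL2 and CCL20. Neighbouring means there were close: from 55 min to 2h25 min 0 members were called under air or pollen, against 0.00935% and 0.159% of probes higher, with CCL20 at 0.12 ± 0.50, CXCL8 at 0.15 ± 0.69 and CCL2 at 0.55 ± 0.25 under pollen. Under air CXCL1, CXCL8, CCL2 and CCL20 were highest at 55 min, and CXCL2 and CXCL3 at 6h50 min.

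All 6h50 min arrays share 1 slide that holds no other time, so slide and time cannot be told apart in comparisons with it. From 2h25 min to 6h50 min limma called 3 of 8 members lower under air (CCL2, CCL20 and CXCL6) and 2 under pollen (CCL2 and CCL20), against 22.6% and 19.9% of all probes, and the median of all probes moved by -0.15 and -0.11. From 6h50 min to 24 h 5 members were called lower under air and 5 under pollen, against 15.9% and 14.5%. The 3 under air to 6h50 min and the 5 under pollen to 24 h include CXCL6. It was above background there on 1 array of the earlier group and 0 of the later. Without CXCL6 these counts are 2 and 4 of 7. From 6h50 min to 24 h the 2 CXCL1 probes disagreed, at -1.39 and -0.41 under air, and so did those of CXCL2, at -1.27 and -0.55. The second CXCL1 probe was called lower from 2h25 min to 6h50 min, at -1.08 under air and -1.05 under pollen. Under air the 5 calls became 3 without 6h50 min air replicate 1 or 2 or without any 24 h air replicate, and the 3 calls from 2h25 min to 6h50 min became 1 without 6h50 min air replicate 3. CCL20 under air lost that call in 6 of 6 fits that left out 1 array, with adjusted p from 0.0627 to 0.15. Under pollen the 5 calls became 3 without 6h50 min pollen replicate 2 or 24 h pollen replicate 3.

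A comparison of 24 h with 2h25 min avoids that slide and was added after the slides were seen. It does not fully separate slide from time. All 24 h arrays lay on the slide that held replicate 3 of each exposure at 2h25 min, while replicates 1 and 2 lay on another. Under air limma called 5 of 8 members lower (CXCL1, CXCL6, CXCL8, CCL2 and CCL20) and under pollen 6 (the same and CXCL3), against 14.9% and 11.8% of all probes. CXCL6 could be tested only through its 2h25 min pollen arrays, and without it the counts are 4 and 5 of 7. CCL2 read -4.26, -4.20 and -3.63 under air at 24 h and -3.97, -4.10 and -3.23 under pollen, below every culture of 2h25 min. It fell by 2.53 ± 0.25 under air with adjusted p = 3.07e-07 and by 3.26 ± 0.25 under pollen with adjusted p = 1.94e-08.

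CCL20 fell by 2.22 ± 0.50 under air and by 2.97 ± 0.50 under pollen, and CXCL1 by 2.00 ± 0.37 and by 2.31 ± 0.37. These 3 genes and CXCL8 were called under both exposures with the slide as a block and in 6 of 6 fits that left out 1 of the arrays compared. That block rests on replicate 3 of each exposure, the 2h25 min arrays on the slide of 24 h. Under air the 5 calls became 3 with quantile normalization and 2 with normexp and quantile normalization. These genes thus did not all keep the call. CXCL8 at 24 h under pollen was below background on all 3 arrays, at -6.30, -7.24 and -7.64, and was at least 14.8-fold lower than at 2h25 min. Under air it read -8.67, -8.38 and -6.14 at 24 h, of which 1 was above background, all below the 2h25 min cultures, and as the others are bounds no fold is given. For CXCL6, where 1 of 3 air arrays at 2h25 min and 0 of 3 at 24 h were above background, no fold is given either.

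CXCL5 did not follow the others, with 0.19 ± 0.26 under air and 0.07 ± 0.26 under pollen from 2h25 min to 24 h. CXCL2 differed by -0.89 ± 0.49 under air and by -1.31 ± 0.49 under pollen, neither called. With the slide as a block the calls of CXCL6 under air and CXCL3 under pollen were lost, with adjusted p = 0.103 and 0.0531, and each was called in 2 of 6 fits that left out 1 array. Among all calls the share higher at 24 h under pollen was 48.8%, and 38.6% with quantile normalization.

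Other genes of the chemokine system were looked up as whole lists. Of 38 other chemokines 35 were on the arrays and 15 were tested, with 0 called at any time. Their median differences at 55 min, 2h25 min and 6h50 min were -0.40, -0.13 and -0.08, below those of the 8 members at each of these times. CCL24, an eosinophil attractant, stood at -0.76 ± 0.36 and CXCL12, the ligand of CXCR4, at -0.84 ± 0.40 at 55 min, with adjusted p = 0.92 for both, and 5 of 15 were lower at an unadjusted p under 0.05, against 3.56% of probes. CXCL9, CXCL10 and CXCL11, the interferon-induced attractants of CXCR3-bearing T cells, were not tested and were above background on 1, 0 and 0 arrays.

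Of 23 chemokine receptors 8 were tested and 0 were called, with medians of -0.17, -0.04 and -0.39 at these 3 times. The receptors CXCR1, CCR2 and CX3CR1 were above background on 0 arrays and CXCR2 on 1. CCR6, the receptor of CCL20, was above background on 30 arrays and differed by -0.37 ± 0.25 at 55 min. CXCR4, the receptor of CXCL12, stood at -0.38 ± 0.31 at 2h25 min and CXCR3 at -0.54 ± 0.21 at 6h50 min, with adjusted p = 1 and 0.449.

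Among 25 upstream cytokines and receptors 21 were tested. IL1B, a cytokine that induces many of the members through its receptor, stood at 0.78 ± 0.23, 1.19 ± 0.23 and 0.67 ± 0.23 at 55 min, 2h25 min and 6h50 min, with adjusted p = 0.0727 at 2h25 min and 0.92 and 0.366 at the other two. IL1A stood at 0.72 ± 0.34, 0.88 ± 0.34 and 0.68 ± 0.34. The list held 0 calls, with 5 of 21 higher at an unadjusted p under 0.05 at 2h25 min, against 1.51% of probes.

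All 27 regulators of chemokine transcripts were tested and 0 were called. At an unadjusted p under 0.05, 7 were higher at 55 min, 9 at 2h25 min and 2 at 6h50 min, against 1.52%, 1.51% and 5.04% of all probes, and 1 was lower at 6h50 min, against 2.4%. Their medians were 0.21, 0.43 and 0.07. FOSB and FOS, subunits of AP-1, stood at 2.22 ± 0.69 and 1.77 ± 0.64 at 55 min, and FOSL1, a further subunit, at 1.15 ± 0.27 at 2h25 min with adjusted p = 0.265. NFKBIZ, which encodes a nuclear IkB protein, stood at 1.15 ± 0.38 at 55 min, and BCL3, another nuclear IkB protein, at 0.53 ± 0.19 at 6h50 min.

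The genes whose pattern over the 10 group means was most like that of a member were found by Pearson's r among probes well above background on all arrays, given as a description of 10 points that share arrays and slides. For CCL20 these were IL1A at 0.943, PDE4D at 0.936 and AFF1 at 0.935. For CXCL1 they were ICA1, WWC1 and STING1, from 0.976 to 0.968, for CXCL2 SENP7, CDKN2B-AS1 and TAOK3, from 0.954 to 0.935, and for CXCL3 CDKN2B-AS1, POU5F1 and SENP7, from 0.966 to 0.931. CCL2 was most like RIN2, SH3KBP1 and SERTAD4, from 0.99 to 0.988, and CXCL5 most like PRAF2, LACTB and ATP8B5P, from 0.905 to 0.889.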

How the data were processed

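RNA of BEAS-2B cultures was measured on 30 one-colour Agilent arrays. The authors deposited spot intensities, background subtracted and detrended within each array by Agilent Feature Extraction 11.0.1.1, and a table of log2 values that the authors pre-processed with limma and whose columns share their quantiles. Probe positions are on hg19.

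Spots marked as uneven or outlying were left out, spots of a probe averaged in R 4.3.3 (package data.table, 1.17.8), and log2 values centred on the 75th percentile of the 33873 probes shared by the designs (578 to 2111 in brightness; 0 saturated). limma 3.58.1 was fitted with 10 group means on probes that every array of some group measured well above background, with Benjamini-Hochberg adjustment over all 32100. Comparisons of effects between times and the F test were called by adjusted p alone. SEs and 95% intervals are limma's, with 20 residual and 2.35 prior degrees of freedom. The brightest probe on both designs stands for a gene. If the dimmer group had 0 arrays above background, the fold is a bound against the higher of its own signal and the lowest signal well above background.

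By the numbers in the sample titles, same-numbered arrays were taken as paired at 10 min, 2h25 min and 24 h, where all 3 correlations of deviations over 19404 probes exceeded 0.1 (0.30 to 0.75). The deposited table's columns matched their own array best in 23 of 29 compared, the other 6 being those of 24 h. Members, lists, motifs and tests were chosen with earlier results of these data known. List genes named are among the 3 of each list with the largest change at 55 min, 2h25 min and 6h50 min above background on all 6 arrays; CXCR1, CXCR2, CCR2, CX3CR1, CXCL9, CXCL10 and CXCL11 were named after their values were seen. The procedure was tested on simulated data. The 3 arrays per group limit the precision.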

Additional observations from a re-analysis of the deposited data

How the results depend on the processing

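With the replicate number as a block, 1 member was called for pollen against air at 2h25 min (CCL2), 2 for the mean effect of pollen (CXCL3 and CCL2, adjusted p = 0.0318 for each) and 2 by the F test, against 0 without it, and it changed no other count. The block could not be fitted for comparisons between times within an exposure, nor the slide as a block for those with 6h50 min. At 55 min and 6h50 min the numbers did not pair the arrays by the correlation of deviations (-0.07 to 0.40 and -0.03 to 0.23). With normexp and quantile normalization the block called 0 members in each of these comparisons, a pairing of choices added after seeing the data.

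Array weights called 1 member at 55 min in pollen against air, 1 in air and 4 in pollen from 10 min to 55 min, where 1 was called under pollen without weights. The authors' value table called 1 member in pollen against air at 6h50 min, 3 from 10 min to 55 min under pollen and 1 from 2h25 min to 6h50 min under air. The percentile over own probes, quantile normalization, normexp with quantile normalization and the slide block each called 0 from 10 min to 55 min under pollen, and leaving out the 3 arrays that stood apart, chosen after seeing the data, called 2. From 6h50 min to 24 h under air the 5 calls became 3 with the percentile over own probes, with no filter on dim probes, with the mean of a gene's probes and without the 3 arrays, 2 with quantile normalization and 1 with normexp and quantile normalization. With quantile normalization and with normexp and quantile normalization, the calls from 2h25 min to 6h50 min were 0 and 0 under air and 1 and 1 under pollen, those from 6h50 min to 24 h under pollen were 3 and 1, and those from 2h25 min to 24 h under air were 3 and 2. Of all calls from 2h25 min to 6h50 min the share higher was 30.5% under air and 35.8% under pollen, and 50.4% and 45.9% with normexp and quantile normalization, and from 6h50 min to 24 h it was 60.8% and 60.1%, and 43.6% and 46.9%.

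Leaving out 1 array at a time gave 0 to 1 calls for pollen against air at 55 min (1, without 55 min air replicate 3), 0 to 2 from 10 min to 55 min under pollen, 1 to 2 from 2h25 min to 6h50 min under air, 3 to 5 from 6h50 min to 24 h under air and 3 to 6 under pollen, 4 to 5 from 2h25 min to 24 h under air and 5 to 6 under pollen. For pollen against air at the other times, the mean effect, the F test and the effects between times it gave 0. Of the values of single members under the alternatives, 604 moved by less than the spread between replicates without a change of call, 23 moved further, 5 gained a call and 0 were called in the opposite direction. CCL5, CX3CL1, CXCL6 at most times and CXCL8 at 24 h are limited by signal near background. The cause of these changes was not tested.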
